A study of Rattus norvegicus with 15 samples.

Results

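Map1b, Map2 and Camk2a are neuronal mRNAs known for transport into dendrites, and they were followed here through 15 sequencing libraries of postnatal day 5 rat brain. They were chosen as 3 Ensembl rows among the 22050 rows of the deposited count table: ENSRNOG00000017428 for Map1b, ENSRNOG00000011841 for Map2 and ENSRNOG00000018712 for Camk2a. The choice rests on their known biology and not on a threshold in these data, but it was made with earlier results of these data known. The count table pairs no ID with a gene name, and 0 of its IDs matched the RefSeq gene table used here, so the 3 names are those under which the rows were chosen and were not checked against an annotation. For the same reason other gene groups and cell type markers, including markers of whole brain, were not analysed here.

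RNA granules are dense assemblies of mRNA, RNA-binding proteins and ribosomes that move along microtubules in neurons. They are thought to carry mRNAs whose translation is held back until they reach the dendrite or synapse. Map1b encodes a microtubule-associated protein of growing neurites and is a classical target of the RNA-binding protein FMRP. Map2 encodes the microtubule-associated protein of dendrites. Camk2a encodes the alpha subunit of calcium/calmodulin-dependent kinase II, a kinase of the postsynaptic density whose mRNA is a textbook example of dendritic localisation and whose level in the forebrain rises after birth.

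All libraries came from Sprague Dawley whole brain, with 5 brains pooled in each homogenate. Footprint libraries hold ribosome-protected mRNA fragments of the gradient pellet, which contains RNA granules, taken after RNase I digestion from the recovered monosomes. There were 5 vehicle footprint libraries, 3 from homogenates prepared with 100 ug/ml cycloheximide (an inhibitor of translation elongation), and 2 from pellets held in 400 mM NaCl and returned to 150 mM before digestion. The 5 RNA-seq libraries were made from homogenate before fractionation, under the control condition. The homogenate mixes all cell types of the brain, and the labels do not say whether numbered libraries of 1 group came from separate homogenates, so p-values measure the spread between libraries, which may be technical.

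The libraries fall into 2 sets by empty cells in the table. Vehicle, cycloheximide and RNA-seq libraries 1 to 3 form the deeper set, with 19223750 to 53645452 counts each. Vehicle and RNA-seq libraries 4 and 5 and both salt libraries form the shallower set, with 941637 to 2808779 counts. What separates the sets is not given in the labels. The main fits of the footprint to RNA ratio and of each treatment were therefore made within a set. Comparisons between the sets, or over libraries of both, are named as such. All 3 genes were detected in all 15 libraries, and the lowest count was 288, for Camk2a in salt library 1, where counting error alone allows 271.6 to 343 CPM (counts per 1000000 counts of a library; 95% exact Poisson interval). Reads carry no molecular identifiers, so such intervals cover counting error only.

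Map1b was among the 3 most counted genes of every library. It ranked first in all 6 footprint libraries of the deeper set, and second in the 4 footprint libraries of the shallower set, where ENSRNOG00000010711 ranked first. Ranks are by count and not corrected for length, so they place each gene within a library and do not compare transcripts of different length. In vehicle footprint libraries 1 to 3 Map1b stood at 20462, 16006 and 17157 CPM, and in libraries 4 and 5 at 14157 and 11318 CPM. In homogenate RNA it stood at 4515, 5463 and 7578 CPM in libraries 1 to 3 and at 8794 and 8264 CPM in libraries 4 and 5. Every vehicle footprint library thus lay above every RNA-seq library for this gene, as in 2.20% of 16191 genes. In vehicle library 1 the single gene took 2.05% of all footprint counts (95% Wilson interval 2.04 to 2.05), against 0.452% (0.449 to 0.455) of the counts of RNA-seq library 1.

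Map2 ranked between 5 and 9 in the footprint libraries and between 7 and 16 in the RNA-seq libraries. Vehicle footprints stood at 4891, 5975 and 5733 CPM in libraries 1 to 3 and at 4868 and 4655 CPM in libraries 4 and 5. Homogenate RNA stood at 2619, 3114 and 3212 CPM in libraries 1 to 3 and at 2787 and 2218 CPM in libraries 4 and 5. The 2 kinds of library did not overlap for Map2 either (2.20% of genes with footprints above RNA), and within each kind the levels of both sets lay close together.

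Camk2a was counted far less and behaved differently between the sets. Its vehicle footprints stood at 327, 344 and 354 CPM in libraries 1 to 3 and at 283 and 284 CPM in libraries 4 and 5. Its homogenate RNA stood at 84.6, 90.0 and 152 CPM in libraries 1 to 3, but at 298 and 269 CPM in libraries 4 and 5. Footprints exceeded RNA in each library of the deeper set, whereas in the shallower set both kinds overlapped. By rank, Camk2a moved from between 1583 and 3077 in RNA-seq libraries 1 to 3 to 558 and 657 in libraries 4 and 5, while its footprint rank stayed between 461 and 695 over all 10 footprint libraries.

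**Figure D1:**
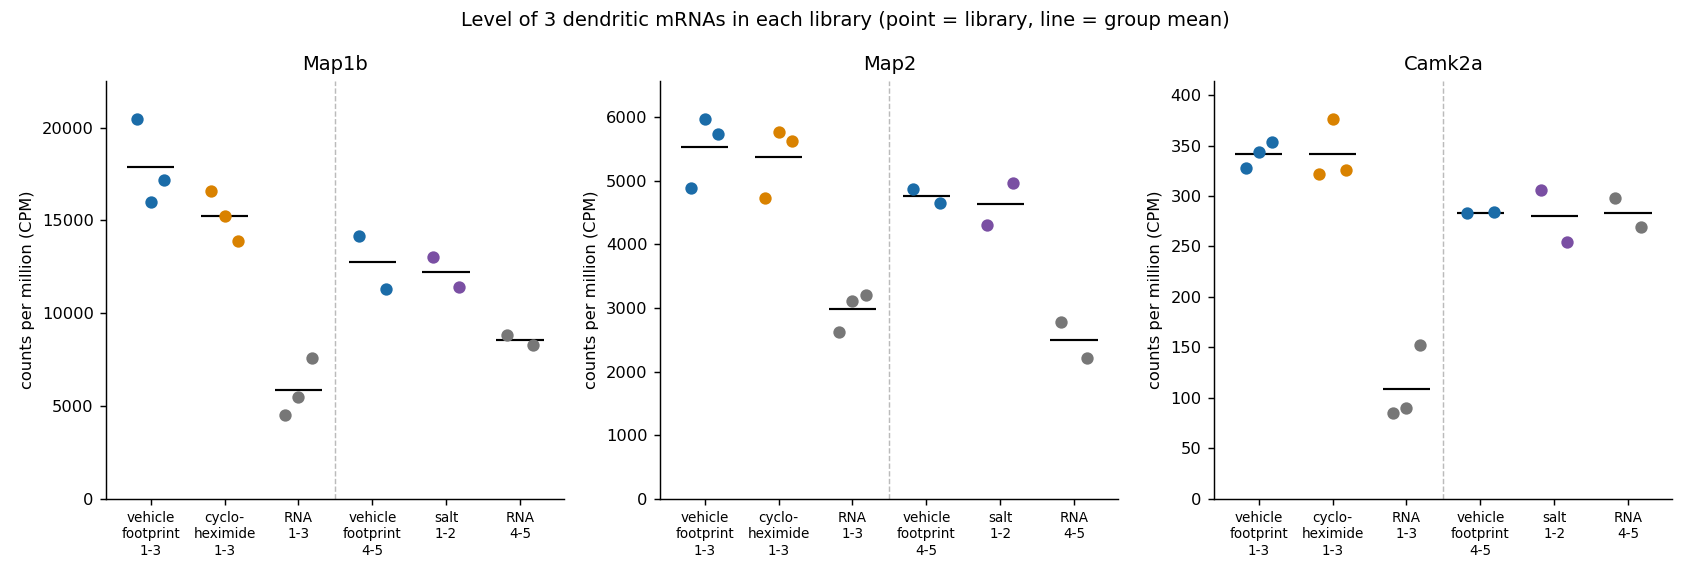
Level of Map1b, Map2 and Camk2a in CPM (vertical axis, linear, from 0) in each of the 15 libraries; points are libraries, lines are group means, and the dashed line divides the deeper set (left) from the shallower set (right). Map1b and Map2 footprints lie above RNA in both sets, while Camk2a RNA lies at 84.6 to 152 CPM in libraries 1 to 3 and at 269 to 298 CPM in libraries 4 and 5, level with its footprints.

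The first comparison asked how many granule-fraction footprints each mRNA carried relative to its level in homogenate RNA. In libraries 1 to 3 all 3 mRNAs were among the genes with the highest ratio. Camk2a footprints exceeded RNA by 4.60-fold, a log2 ratio of 2.20 (SE 0.26, 95% interval 1.62 to 2.78), which placed it 72nd from the top of 15335 genes tested (edgeR quasi-likelihood test, adjusted p 0.000176). Map1b followed at 4.47-fold, a log2 ratio of 2.16 (SE 0.26, 95% interval 1.58 to 2.75), 82nd from the top (edgeR adjusted p 0.000192). Map2 had a ratio of 2.74-fold, log2 1.45 (SE 0.21, 95% interval 0.99 to 1.92), with 96.3% of genes below it (edgeR adjusted p 0.000412).

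A call in this comparison was common, since 51.3% of genes tested were called and 22.0% were called with more footprints than RNA. What set the 3 mRNAs apart was size: the median log2 ratio of all genes was -0.18, and 99.5% of genes lay below Map1b and Camk2a. The groups did not overlap in CPM for any of the 3, a pattern shown in the higher direction by 10.7% of genes. Scaling by library totals alone lowered the ratios to 1.61 for Map1b, 0.89 for Map2 and 1.65 for Camk2a and the median of all genes to -0.75, a shift of the whole distribution, and all 3 calls held. The ratio combines recovery of an mRNA in the pelleted fraction with the number of ribosomes on it, and the design cannot tell these apart. It was also not corrected for the share of each transcript that is translated, where footprints fall. Ranks of the ratio compare genes that may differ in that share.

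In libraries 4 and 5 the order of the 3 mRNAs was the reverse, although the intervals of Camk2a and Map1b had nearly coincided in libraries 1 to 3. Map2 had the highest ratio of the 3 at 2.26-fold, log2 1.17 (SE 0.18, 95% interval 0.77 to 1.58, edgeR adjusted p 0.0119), with 93.7% of 11642 genes below it. Map1b had a ratio of 1.77-fold, log2 0.82 (SE 0.15, 95% interval 0.47 to 1.17, edgeR adjusted p 0.0264), with 86.8% of genes below it. Camk2a had a log2 ratio of 0.25 (SE 0.22, 95% interval -0.25 to 0.75, edgeR adjusted p 0.585), which 64.8% of genes lay below, against a median of -0.08 for all genes. In this fit 3.79% of genes were called in either direction and 1.61% with more footprints. That share depended on single libraries and on the tool, at 12.5% without vehicle library 4, 24.0% without vehicle library 5 and 8.37% with DESeq2. Further, 15.0% of genes had footprints above RNA without overlap in CPM, as Map1b and Map2 did.

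The Map1b call in this set was the less secure of both. It was lost when RNA-seq library 4 (edgeR adjusted p 0.100) or RNA-seq library 5 (edgeR adjusted p 0.134) was left out, which leaves 1 RNA-seq library assumed to vary like the footprints, and with library totals in place of TMM scaling (edgeR adjusted p 0.0932). The Map2 call held without any 1 of the 4 libraries, with edgeR adjusted p-values up to 0.0295.

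**Figure D2:**
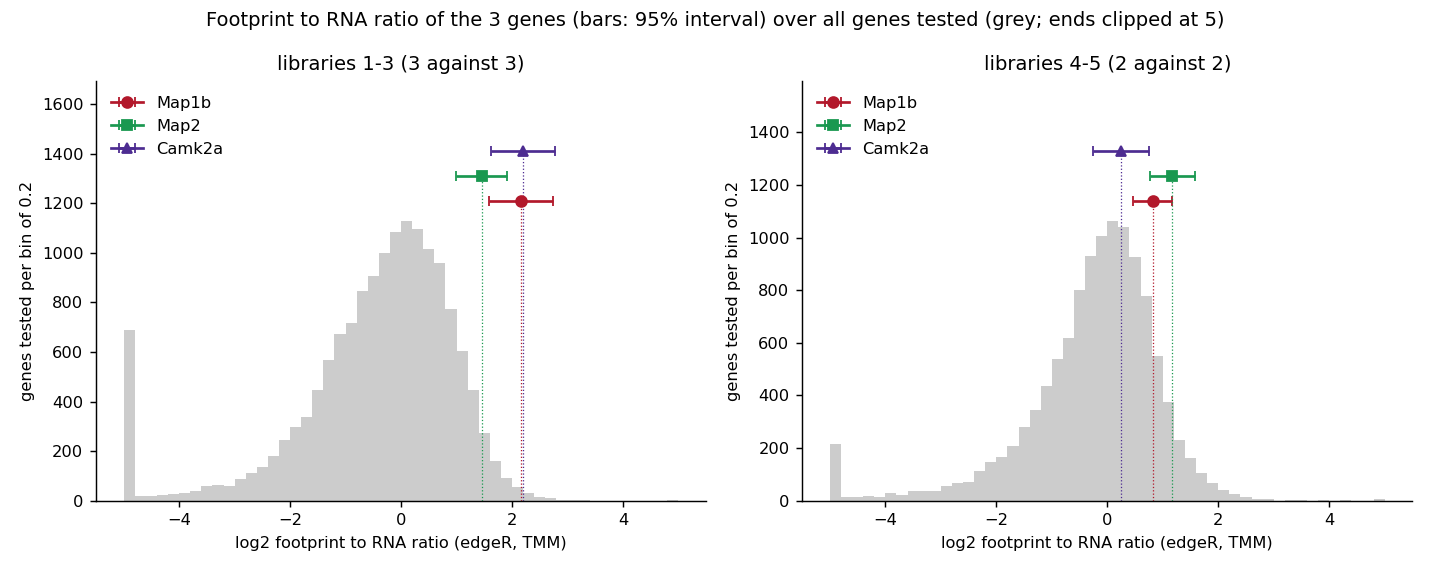
Log2 footprint to RNA ratio of Map1b, Map2 and Camk2a (symbols, with 95% intervals as horizontal bars; their height carries no value) above a histogram of all genes tested (grey, genes per bin, ratios beyond 5 placed in the end bins), for libraries 1 to 3 (left) and 4 and 5 (right). The 3 genes lie in the upper tail at 1.45 to 2.20 on the left, and spread from 0.25 for Camk2a to 1.17 for Map2 on the right.

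An interaction term of set and library kind asked whether the ratio differed between the sets. Of 16191 genes tested 2.47% were called, 1.98% with the lower ratio in libraries 4 and 5. That lean depended on the scaling, since 321 lower against 79 higher calls became 175 against 94 with RLE size factors and 92 against 92 with library totals. The log2 ratio of Camk2a was lower in libraries 4 and 5, with a log2 difference of -1.998 (SE 0.38, 95% interval -2.82 to -1.18, edgeR adjusted p 0.0212). That of Map1b differed by -1.38 (SE 0.34, 95% interval -2.11 to -0.66), with an edgeR adjusted p of 0.0475. Neither fall was extreme in size, since 13.6% of genes tested had a lower difference than Camk2a and 19.7% a lower one than Map1b. The Map1b call rested on the threshold, since the adjusted p was 0.0719 with RLE size factors, 0.0998 with library totals and 0.0512 with the RNA-seq counts halved. The Camk2a call held under these 3 settings (edgeR adjusted p 0.0345, 0.0423 and 0.0227). Leaving out 1 library at a time was not run for this fit. Both the Camk2a and the Map1b call were lost with the replicate number as a block (edgeR adjusted p 0.0681 and 0.136). The labels do not say what same-numbered footprint and RNA-seq libraries share. The Map2 ratio differed by -0.33 (SE 0.31, 95% interval -0.99 to 0.33, edgeR adjusted p 0.589), an interval wide enough for a fall to 0.504 times or a rise, and the estimate was 0.036 with library totals. The median difference over all genes was -0.27.

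The levels of each kind of library were then compared between the sets, a comparison added after the values had been seen. Camk2a was the one of the 3 whose homogenate RNA was called, higher in libraries 4 and 5 by 1.56 on the log2 scale (SE 0.28, 95% interval 0.92 to 2.19, edgeR adjusted p 0.0204), with 94.95% of 15930 genes below it. In this comparison 5.85% of genes were called and 3.92% were called higher. The share called was 2.14% without RNA-seq library 1, 0.974% without library 2, 9.74% without library 4, 9.47% without library 5 and 15.6% with DESeq2. The Camk2a call was lost without RNA-seq library 2 (edgeR adjusted p 0.104), library 4 (edgeR adjusted p 0.0749) or library 5 (edgeR adjusted p 0.0569), while the log2 difference stayed between 1.40 and 1.91 whichever of the 5 libraries was left out. In such bulk RNA, more cells of a type and more RNA per cell cannot be told apart.

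Map1b RNA had a log2 difference of 0.72 between libraries 4 and 5 and 1 to 3 (SE 0.24, 95% interval 0.19 to 1.26), which did not pass the threshold (edgeR adjusted p 0.0994). It passed with DESeq2 (adjusted p 0.0357) and without RNA-seq library 3 (edgeR adjusted p 0.0132), the deeper library with the highest Map1b level. Map2 RNA had a log2 difference of -0.06 (SE 0.19, 95% interval -0.50 to 0.37, edgeR adjusted p 0.860). For Camk2a and Map1b each RNA-seq library of the shallower set lay above each of the deeper set, as did 14.5% of genes tested, while the Map2 values overlapped.

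Footprints of the 3 mRNAs showed no called difference between the sets, in a comparison that called 0.128% of 14072 genes. That share was 3.69% without vehicle library 1, 25.1% without vehicle library 5 and 11.5% with DESeq2, and the 3 mRNAs passed in none of these. The log2 difference of libraries 4 and 5 from 1 to 3 was -0.52 for Map1b (95% interval -1.03 to -0.01, edgeR adjusted p 0.202), -0.25 for Map2 (-0.75 to 0.25, edgeR adjusted p 0.494) and -0.30 for Camk2a (-0.78 to 0.18, edgeR adjusted p 0.393). All 3 were lower in CPM without overlap, as were 30.8% of genes. For Camk2a the larger part of the change in its ratio therefore lay on the RNA side.

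A ratio of counts of 2 genes within 1 library needs no scaling between libraries. A fixed difference in transcript length cancels when that ratio is compared between libraries of the same kind. Between footprints and RNA it need not cancel, since footprints fall on the translated part of a transcript and RNA-seq reads can fall on all of it. An offset of this sort that is the same in both sets cancels in the difference between the sets. The count ratio was used to compare the 3 mRNAs with each other. The Map2 to Camk2a count ratio was 14.9, 17.4, 16.2, 17.2 and 16.4 in vehicle footprint libraries 1 to 5. In homogenate RNA it was 31.0, 34.6 and 21.1 in libraries 1 to 3 and 9.37 and 8.24 in libraries 4 and 5. The vehicle footprints therefore sat between the RNA-seq libraries of both sets. Over all 10 footprint libraries, treated ones included, the ratio ranged from 14.1 to 19.5, a 1.39-fold span, against a 4.20-fold span over the 5 RNA-seq libraries.

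The Map1b to Map2 count ratio moved in the opposite sense. It was 4.18, 2.68 and 2.99 in vehicle footprint libraries 1 to 3, above the 1.72, 1.75 and 2.36 of RNA-seq libraries 1 to 3. In vehicle libraries 4 and 5 it was 2.91 and 2.43, below the 3.15 and 3.73 of RNA-seq libraries 4 and 5. The groups overlapped in neither set, but the direction was opposite.

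The Map1b to Camk2a count ratio was 62.5, 46.5 and 48.5 in vehicle footprint libraries 1 to 3 and 53.4, 60.7 and 49.8 in RNA-seq libraries 1 to 3, with overlap. In libraries 4 and 5 it was 50.1 and 39.8 in vehicle footprints and 29.5 and 30.7 in RNA. The ratio was thus higher in footprints than in RNA in the shallower set, while in the deeper set the groups overlapped. This contrast between the sets did not pass a permutation test, given below.

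Over all 5 against 5 libraries the mean log2 count ratio differed between vehicle footprints and RNA by 0.30 for Map1b to Map2, by 0.19 for Map1b to Camk2a and by -0.11 for Map2 to Camk2a. None of the 3 passed a two-sided exact permutation test (p 0.286, 0.452 and 0.722, adjusted over the 3 pairs 0.679, 0.679 and 0.722). The pooled values average sets of opposite direction. Within sets the footprint minus RNA difference was 0.74 in libraries 1 to 3 and -0.37 in libraries 4 and 5 for Map1b to Map2, and -0.81 and 0.93 for Map2 to Camk2a.

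Between the sets these differences differed by -1.11 for Map1b to Map2, by 1.74 for Map2 to Camk2a and by 0.63 for Map1b to Camk2a on the log2 scale. Groups that overlap in neither set and run in opposite directions fix a permutation within sets at its smallest p, so no such p is given for the first 2 pairs. Without any 1 library the differences stayed between -1.26 and -0.92 and between 1.60 and 1.95 for these pairs. For Map1b to Camk2a the difference between sets did not pass an exact permutation test within sets (p 0.117, adjusted over the 3 pairs 0.117).

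**Figure D3:**
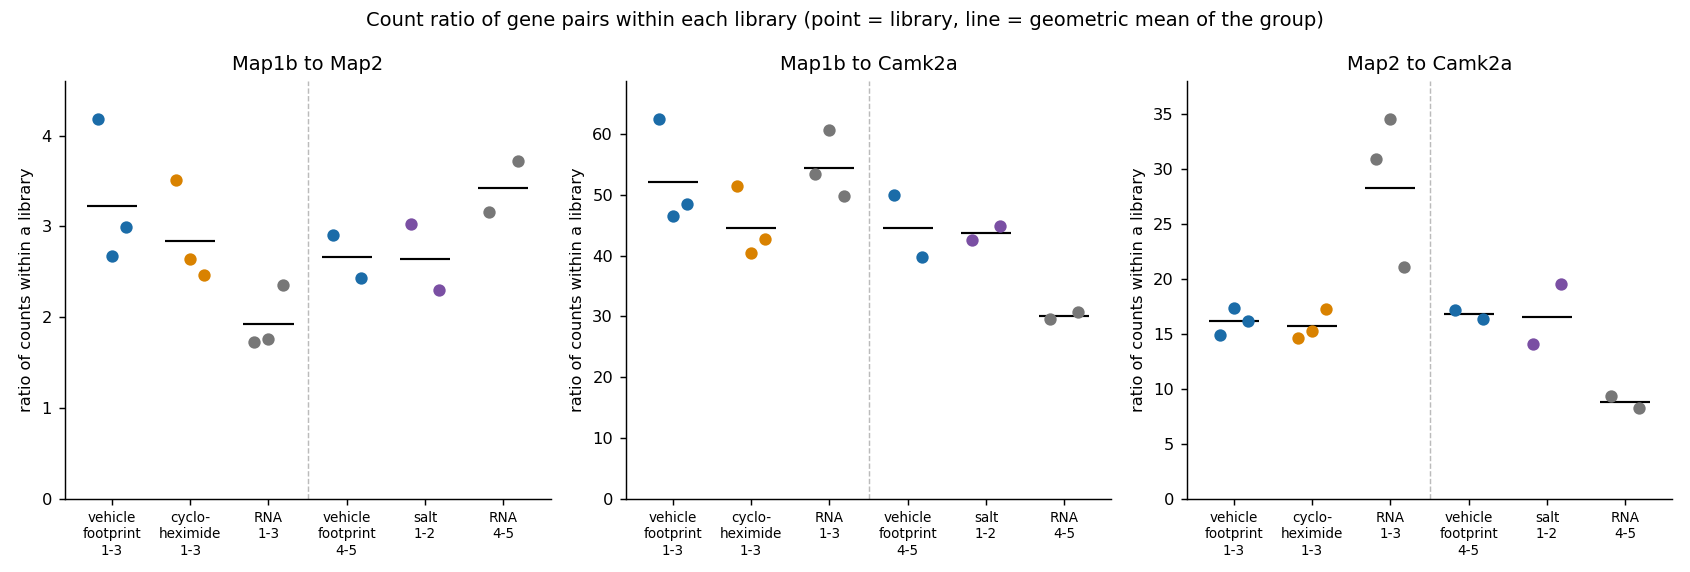
Ratio of the counts of 2 genes within each library (vertical axis, linear, from 0) for the 3 pairs; points are libraries, lines are geometric means of the groups, and the dashed line divides the deeper set (left) from the shallower set (right). The Map2 to Camk2a ratio stays between 14.1 and 19.5 in the 10 footprint libraries but lies at 21.1 to 34.6 in RNA-seq libraries 1 to 3 and at 8.24 to 9.37 in libraries 4 and 5.

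Cycloheximide in the homogenisation buffer was compared with vehicle in libraries 1 to 3. The question was whether arresting elongation during preparation changed the share of footprints each mRNA took. With cycloheximide Map1b stood at 16588, 15213 and 13905 CPM in libraries 1 to 3, against 20462, 16006 and 17157 CPM with vehicle. The level was lower in all 3 same-numbered pairs, but the groups overlapped. The log2 difference was -0.26 (SE 0.18, 95% interval -0.68 to 0.16, edgeR adjusted p 1.00). With the replicate number as a block it was -0.26 (SE 0.060, 95% interval -0.40 to -0.12), between 0.759 and 0.918 times the vehicle level. The block assumes that libraries of the same number belong together, which the labels do not state. With the block the unadjusted edgeR p of Map1b was 0.00212 and its adjusted p 0.996, so it did not pass. Of the 13871 genes tested 658 had an unadjusted edgeR p under 0.05, a share below the 0.05 that no change would give.

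Map2 stood at 4726, 5763 and 5631 CPM with cycloheximide, lower in all 3 same-numbered pairs. The log2 difference was -0.08 (SE 0.18, 95% interval -0.48 to 0.33, edgeR adjusted p 1.00), and -0.08 (SE 0.052, 95% interval -0.19 to 0.043, edgeR adjusted p 0.999) with the block. Camk2a stood at 322, 376 and 326 CPM, lower in 2 of the 3 pairs. The log2 difference was -0.03 (SE 0.14, 95% interval -0.36 to 0.29, edgeR adjusted p 1.00), and -0.04 (SE 0.078, 95% interval -0.21 to 0.14, edgeR adjusted p 0.999) with the block. Both overlapped with vehicle. No gene of the 13871 tested was called (0%) with edgeR or DESeq2. Without the block 70 had an unadjusted edgeR p under 0.05, fewer than no change would give.

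Salt was compared with vehicle libraries 4 and 5. This asks whether holding the pellet at raised ionic strength before digestion changed the share of footprints each mRNA took. Counts are relative within a library, so a loss shared by all mRNAs would not show. Map1b stood at 13037 and 11421 CPM in salt libraries 1 and 2, both between the 14157 and 11318 CPM of the vehicle libraries. Map2 stood at 4311 and 4973 CPM against 4868 and 4655 CPM. Camk2a stood at 306 and 255 CPM against 283 and 284 CPM. In each gene the salt and vehicle values overlapped.

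The log2 difference with salt was -0.05 for Map1b (95% interval -0.38 to 0.29), -0.03 for Map2 (-0.39 to 0.34) and -0.01 for Camk2a (-0.57 to 0.55), each with an edgeR adjusted p of 1.00. Camk2a, the least counted, had the widest interval, between 0.671 and 1.47 times the vehicle level. With 2 libraries a group these intervals do not show that salt left the mRNAs unaltered. No gene of the 9803 tested was called (0%) with edgeR or DESeq2, and 185 had an unadjusted edgeR p under 0.05, fewer than no change would give. Both treatment comparisons use vehicle libraries that also enter the footprint to RNA ratios.

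**Figure D4:**
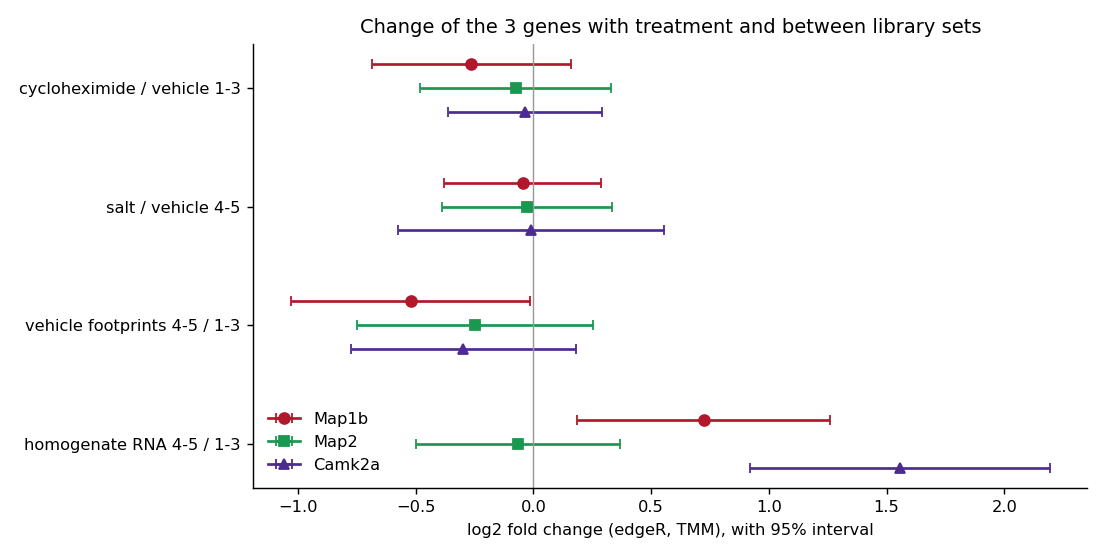
Log2 fold change of Map1b, Map2 and Camk2a with 95% intervals (horizontal axis) for cycloheximide against vehicle, salt against vehicle, and libraries 4 and 5 against 1 to 3 in vehicle footprints and in homogenate RNA. All treatment intervals include 0, and the homogenate RNA differences of Camk2a (1.56) and Map1b (0.72) stand to the right of 0.

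The profile of each mRNA over the 15 libraries was set against 9290 rows with a mean of at least 10 CPM, by Pearson's r of log2(CPM + 1). These values describe libraries that share kind, set and depth, and carry no test. Camk2a correlated with Map1b at 0.90, the 48th closest profile to Map1b, and with Map2 at 0.64. Map1b and Map2 correlated at 0.83. The closest profile was that of ENSRNOG00000033835 for Map1b (r 0.96), ENSRNOG00000033790 for Map2 (r 0.98) and ENSRNOG00000001877 for Camk2a (r 0.98). None of the 3 mRNAs was among the 3 closest profiles of another.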

How the data were processed

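The deposited values are raw read counts per gene, in 1 table with a column for each sample title. Per the submitters' processing notes, CASAVA, cutadapt 2.8, Bowtie2 2.3.5, STAR 2.7.3a, deepTools and the build Rnor_6.0 were used, with no role or order stated. The counting program, annotation and strand setting are not given in the sources used here. The 6 genes with empty cells in the 9 libraries of the deeper set were left out, and 22044 genes were used.

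In the RNA-seq libraries 88.4% to 97.7% of nonzero counts were even, against 48.6% to 50.1% in footprints, as when both mates of a pair are counted. Such counts hold fewer independent fragments than their size shows, and a fit with RNA-seq counts halved was run.

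Each comparison was fitted in R 4.3.3 with edgeR 4.0.16 (quasi-likelihood F-test, robust, TMM, filterByExpr) on the libraries compared only, with Benjamini-Hochberg adjustment over all genes tested and a threshold of 0.05. A standard error is the absolute log2 change divided by the square root of F. CPM uses the library total without the TMM factor. DESeq2 1.42.0 and other normalisations were alternatives. Count ratios were tested by exact permutation in Python 3.11.15. The procedure was tested on simulated data, in which 200 genes of at least 10 CPM were given a log2 change of 1. It called 58% of them in the ratio of libraries 1 to 3 and 38.5% with cycloheximide. In libraries 4 and 5 it called 4%, with salt 4.5%, and for the difference between sets 0.5%. With a log2 change of 2 these shares were, in this order, 100%, 99.5%, 61.5%, 52.5% and 52.5%. A change that was not called may therefore still be present.

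Over 24 pairs of libraries of 1 group, a chi-square test of counts gave at least 7.58 per degree of freedom, so none agreed within sampling noise. Deviations from the group mean correlated in vehicle and cycloheximide libraries of the same number (r 0.89, 0.50 and 0.52 over 9290 genes). Libraries of different number were not set against each other, and of libraries 1 to 3 library 1 stood furthest apart in both groups. Its chi-square per degree of freedom against libraries 2 and 3 was 200 and 192 in vehicle, and 159 and 139 in cycloheximide. Library 2 against 3 gave 20.7 and 32.5. These correlations therefore cannot show whether the numbers pair the libraries.

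The 3 genes, the comparisons and the lists were chosen with earlier results of these data known. Named genes were to be the 3 members, leading genes of 4 gene lists, and the closest profiles. The lists, and markers of brain cell types, could not be matched to IDs and were not used here. At most 1 closest profile a gene is named.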

Additional observations from a re-analysis of the deposited data

Results flagged for a closer look

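The footprint to RNA ratio of 2 of the 3 mRNAs was called different between libraries 4 and 5 and libraries 1 to 3, in a test that called 2.47% of all genes. The log2 difference was -1.998 for Camk2a (edgeR adjusted p 0.0212, lower ratio in libraries 4 and 5) and -1.384 for Map1b (edgeR adjusted p 0.0475). Of genes tested, 13.6% had a lower difference than Camk2a and 19.7% a lower one than Map1b. The Map1b call was lost with RLE size factors, library totals, halved RNA-seq counts and the replicate block, and the Camk2a call with the replicate block. The deeper and shallower sets also differ in depth by about an order of magnitude, and whether depth, preparation or the brains used has a part in this was not tested.

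The footprint minus RNA difference of the log2 count ratio also differed between the sets, by -1.111 for Map1b to Map2 and by 1.742 for Map2 to Camk2a, with opposite directions and no overlap in both sets; no test is given, since that pattern fixes a permutation at its smallest p. These values use the same counts as the ratios above and are no independent support for them. CPM and count ratios in vehicle footprints and RNA were checked, in 12 checks, for a single library far from the other 4. The checks found 0 such libraries, where chance gives about 0.6 if the libraries of both sets vary alike. Each check pooled both sets, and where the sets lie apart it can hardly find a far library.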

How the results depend on the processing

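All 39 alternative values of the log2 ratios in libraries 1 to 3 kept direction and call. With library totals in place of TMM, the log2 ratio in libraries 4 and 5 was 0.57 for Map1b (edgeR adjusted p 0.0932) and -0.0092 for Camk2a, and the difference between sets was -1.03 for Map1b and 0.036 for Map2. That scaling moved the share of called genes with more footprints from 42.9% to 14.6% in libraries 1 to 3 and from 42.4% to 14.8% in libraries 4 and 5. It moved the share with a higher ratio in libraries 4 and 5 from 19.75% to 50.0%, against 34.9% with RLE, and the share with higher RNA there from 66.95% to 35.2%. The Map1b difference between sets was -1.23 with RLE and -1.38 with RNA-seq counts halved, and the Map1b RNA difference was 0.76 with DESeq2.

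What same-numbered footprint and RNA-seq libraries share is not given in the labels, and their deviations from the group mean correlated at r -0.26 to 0.12. With the replicate number as a block the difference between sets was -1.43 for Map1b (edgeR adjusted p 0.136) and -2.06 for Camk2a (edgeR adjusted p 0.0681), with 51 genes called, and 838 genes were called in libraries 4 and 5. The 3 mRNAs kept their calls under the block in the other fits. No paired analysis was possible for salt against vehicle 4 and 5 because they share no number. Salt against all 5 vehicle libraries with the block called 482 genes, none of them these mRNAs. That block sets salt libraries 1 and 2 against vehicle libraries 1 and 2 of the deeper set. Salt and library set cannot be told apart in it.

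Genes called in libraries 4 and 5 numbered 441, against 1231 without a filter, 974 with DESeq2 and 1971 with all 15 libraries in 1 fit. For the difference between sets 400 were called, against 184 with library totals and 1627 with DESeq2. Salt called 2 genes without a filter. Against all 5 vehicle libraries the cycloheximide log2 difference was 0.019 for Map2 and 0.078 for Camk2a. Between the sets, 932 genes were called in RNA and 18 in footprints, and over the alternatives 142 to 2481 and 15 to 3648.

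Leaving out 1 library at a time gave 0.75 to 0.93 for Map1b in libraries 4 and 5, with 254 to 3014 genes called (3014 without vehicle library 5, 1585 without vehicle library 4). It gave cycloheximide differences of -0.16 to 0.033 for Map2 and -0.12 to 0.033 for Camk2a. Salt differences were -0.16 to 0.061 for Map1b, -0.13 to 0.064 for Map2 and -0.16 to 0.12 for Camk2a, with 0 to 19 genes called. RNA differences between sets were 0.56 to 0.98 for Map1b, -0.27 to 0.11 for Map2 and 1.40 to 1.91 for Camk2a. The Map2 to Camk2a log2 count ratio differed between kinds by -0.39 to 0.13. The differences between sets of the count ratios ranged from -1.26 to -0.92 for Map1b to Map2, 0.47 to 0.80 for Map1b to Camk2a and 1.60 to 1.95 for Map2 to Camk2a. The cause of these changes was not tested.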

Other observations

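Together the 3 mRNAs took 2.57%, 2.23% and 2.32% of the counts of vehicle footprint libraries 1 to 3 and 1.93% and 1.63% in libraries 4 and 5. With cycloheximide their summed share was 2.16%, 2.14% and 1.99%, and with salt 1.77% and 1.66%. In homogenate RNA it was 0.722%, 0.867% and 1.09% in libraries 1 to 3 and 1.19% and 1.08% in libraries 4 and 5, below each footprint library. Map1b carries most of this share.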
